A study of Homo sapiens with 12 samples.

Results

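The autophagy machinery genes described here are 38 of the 19775 genes that the arrays measured with a probe set of a single gene symbol. They are the 18 genes named ATG followed by a number, and 20 further genes of the pathway that were listed by name. Each gene was read from 1 probe set, the one with the highest mean over all 12 arrays. Those means chose the probe sets and are a description: they ran from 4.45 for VMP1 to 13.18 for GABARAP (log2 intensity). The list of 20 was drawn up with earlier results of these arrays known, whereas the 18 ATG genes entered by name.

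The cells were HEK293T, which derive from human embryonic kidney and express SV40 large T antigen. They received siRNA at 25 nM, either a MED26 siRNA (s18074, s18075 and s18076, each in its own group) or non-targeting siRNA in the control group. MED26 is a subunit of Mediator, which links transcription factors to RNA polymerase II. Total RNA was taken after 48 hours, and each of the 4 groups held 3 expression arrays, of which 12 were made in all. The labels give each control array a different non-targeting siRNA and the protocol names only 1, so the control siRNA and the replicate number cannot be told apart. All groups share the line, the transfection and the harvest time, the knockdown is transient and partial, and the labels do not say that replicates were separate cultures, so a p-value here reflects variation from array to array, part of which may be technical. Arrays give no read depth, and their number limits the precision.

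Autophagy encloses cytoplasm in a double membrane, the autophagosome, and delivers it to the lysosome. The ULK kinase complex starts the process, a class III PI3-kinase complex marks the membrane with a lipid that WIPI proteins bind, ATG2 and ATG9 supply lipid, and a conjugation cascade attaches ATG8 proteins (LC3 and GABARAP) to the membrane. Cargo receptors such as SQSTM1 bind ubiquitinated cargo and ATG8 proteins at once, and TFEB is a transcription factor for lysosome and autophagy genes.

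MED26 fell with every siRNA, with log2 fold changes of -1.10, -0.57 and -1.08 for s18074, s18075 and s18076 on its brightest probe set and -0.26 in the mean with all of its probe sets averaged. Array medians lay between 72.3 and 73.8 (linear intensity). Of the markers chosen for the line, LIN28B (11.75 in the controls, log2 intensity), VIM (13.11), NEFM (11.38) and NEFL (11.12) were bright. CDH2 (10.6) and KRT18 (10.5) were lower, and KRT8 (7.89) and PAX2 (6.54) were far lower. The fibroblast marker COL1A1 read 8.52, above KRT8 and PAX2. Among the dimmest 40% of genes were 3 of 4 blood cell markers, 3 of 5 fibroblast markers and 3 of 4 markers of other epithelial lines. NEFM and NEFL fell, and so did the fibroblast markers COL3A1 and LUM. The summed linear intensity of the 5 fibroblast markers, none of which was listed at 0, ran from 646 to 705 in the controls, 585 to 665 with s18074, 639 to 672 with s18075 and 584 to 636 with s18076, and its part in the results was not tested. In such bulk RNA, fewer cells of a kind and less RNA per cell cannot be told apart.

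The first comparison asked how the autophagy genes stood in MED26-depleted cells relative to the controls. In the mean of the 3 siRNAs, 12 of the 38 genes rose, 1 fell and 25 did not pass (limma, adjusted p under 0.05 by Benjamini-Hochberg, taken over the 19775 genes). The risers were TP53INP2, ATG2A, PIK3C3, ULK1, SQSTM1, ATG4D, NBR1, MAP1LC3B, ATG7, OPTN, UVRAG and GABARAP, and the gene that fell was ATG10. The median log2 fold change was 0.13 for the 38 genes and 0.00 for all genes, and the changes ran from -0.25 for ATG10 to 0.73 for TP53INP2.

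Over all genes 20.3% were called, 10.2% upwards and 10.2% downwards, against 34.2% of the autophagy genes, 31.6% upwards and 2.63% downwards. Bright genes were called more often: outside the dimmest 40%, where 36 of the 38 autophagy genes lie, 30.6% of all genes were called, 15.2% upwards and 15.4% downwards, against 36.1% of those 36. The share called in either direction was thus near that of bright genes, with 33.3% of the 36 called upwards and 2.78% downwards. Of the 18 ATG genes 3 rose and 1 fell, 22.2%, close to the background, with a median of 0.10. Of the 20 listed genes 9 rose and 0 fell, and that higher share cannot be told apart from the way the list was made. At an unadjusted p under 0.05, 17 of the 38 genes were higher and 1 was lower, where 15.7% of all genes were higher and 15.7% lower.

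**Figure D1:**
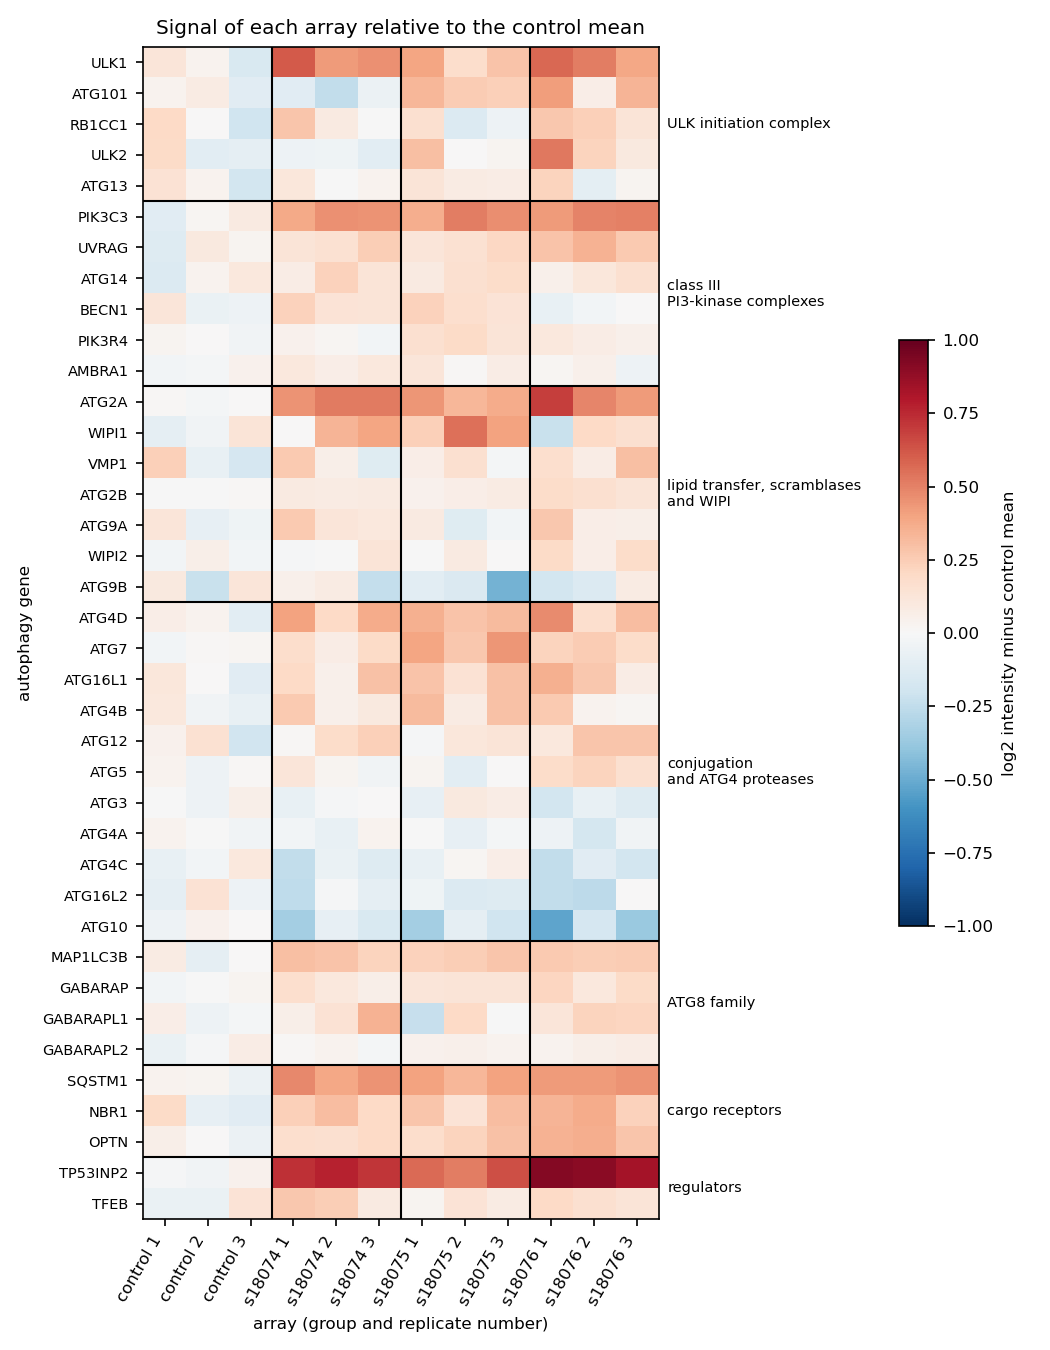
Heat map of the 38 autophagy genes (rows, grouped by role) on the 12 arrays (columns, by group and replicate). Colour gives log2 intensity minus the control mean of the gene, red for higher and blue for lower; TP53INP2, with a mean change of 0.73, is the deepest red row and ATG10, at -0.25, is blue on all 9 knockdown arrays.

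Against the same controls, the single siRNAs gave between 7 and 15 called genes. With s18074, 7 genes rose and 0 fell, where 14.2% of all genes were called (6.67% upwards, 7.55% downwards) and 21.7% of bright ones (10.1% upwards, 11.5% downwards). With s18075, 10 rose and 0 fell (16.9% of all genes called, 8.11% upwards and 8.77% downwards, and 25.6% of bright ones, 12.1% upwards and 13.5% downwards), and with s18076 14 rose and 1, ATG10, fell (18.9% of all genes called, 10.3% upwards and 8.62% downwards, and 28.6% of bright ones, 15.8% upwards and 12.8% downwards). At an unadjusted p under 0.05 with s18074, 13 of the 38 genes were higher and 0 lower, where 12.5% of all genes were higher and 14% lower. With s18075, 18 were higher and 0 lower at that p, where 14.9% of all genes were higher and 14.1% lower. Leaving out 1 array gave counts of 6 to 10 for s18074, 6 to 12 for s18075 and 9 to 15 for s18076. The lowest came without s18074 replicate 1, s18075 replicate 3 and s18076 replicate 1. The share of all genes called in those fits is not given, so these counts alone do not describe the autophagy genes. The 3 comparisons share the control arrays. The medians over the 38 genes were 0.14, 0.12 and 0.18, beside -0.01, 0.01 and 0.00 over all genes.

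**Figure D2:**
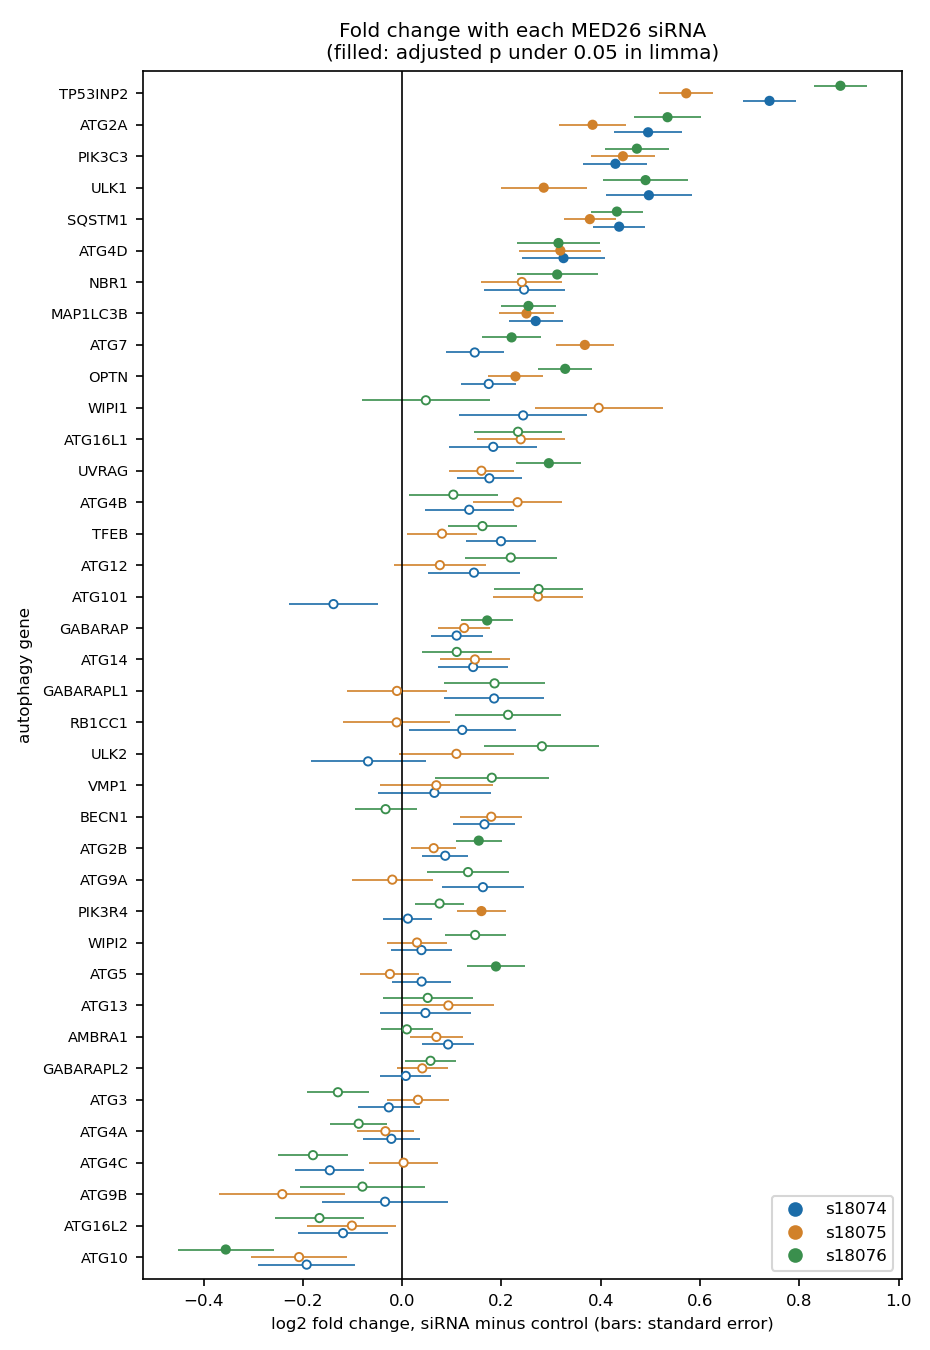
Log2 fold change of each autophagy gene (vertical axis, ordered by the mean) with s18074, s18075 and s18076 against the control, with the standard error as bars. Filled points passed the test in that comparison, 7, 10 and 15 of 38; most of the genes between ATG16L1 and ATG10 have open points that lie near 0.

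The most changed gene was TP53INP2, whose protein leaves the nucleus to bind ATG8 proteins and VMP1 at the forming autophagosome. The control arrays read 8.90, 8.87 and 8.95 (log2 intensity), those of s18074 9.64, 9.68 and 9.62, those of s18075 9.47, 9.42 and 9.55, and those of s18076 9.83, 9.81 and 9.73. All 9 knockdown arrays lay above the 3 controls, and the 3 siRNA groups did not overlap with each other either. The gene rose by 0.74 ± 0.05 (log2 fold change, SE), 0.57 ± 0.05 and 0.88 ± 0.05, and by 0.73 ± 0.04 in the mean (adjusted p = 5.24e-07), which is 166% of the control level. It was higher with s18076 than with s18075 by 0.31 ± 0.05 (adjusted p = 0.00240), and the siRNAs differed by the F test (adjusted p = 0.00595), though not on replicates 2 and 3 alone (adjusted p = 0.0864). It was read from its sole probe set.

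Among the 38 genes, 12 had all 9 knockdown arrays above all 3 controls, and 1, ATG10, had them all below. Over all genes, dim ones included, 6.78% lay above and 6.43% below in this way. The share among bright genes was not taken. Of the 12, ATG2B did not pass the test in the mean, and of the genes that rose NBR1 is not among the 12, since its control replicate 1 read 11.01.

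**Figure D3:**
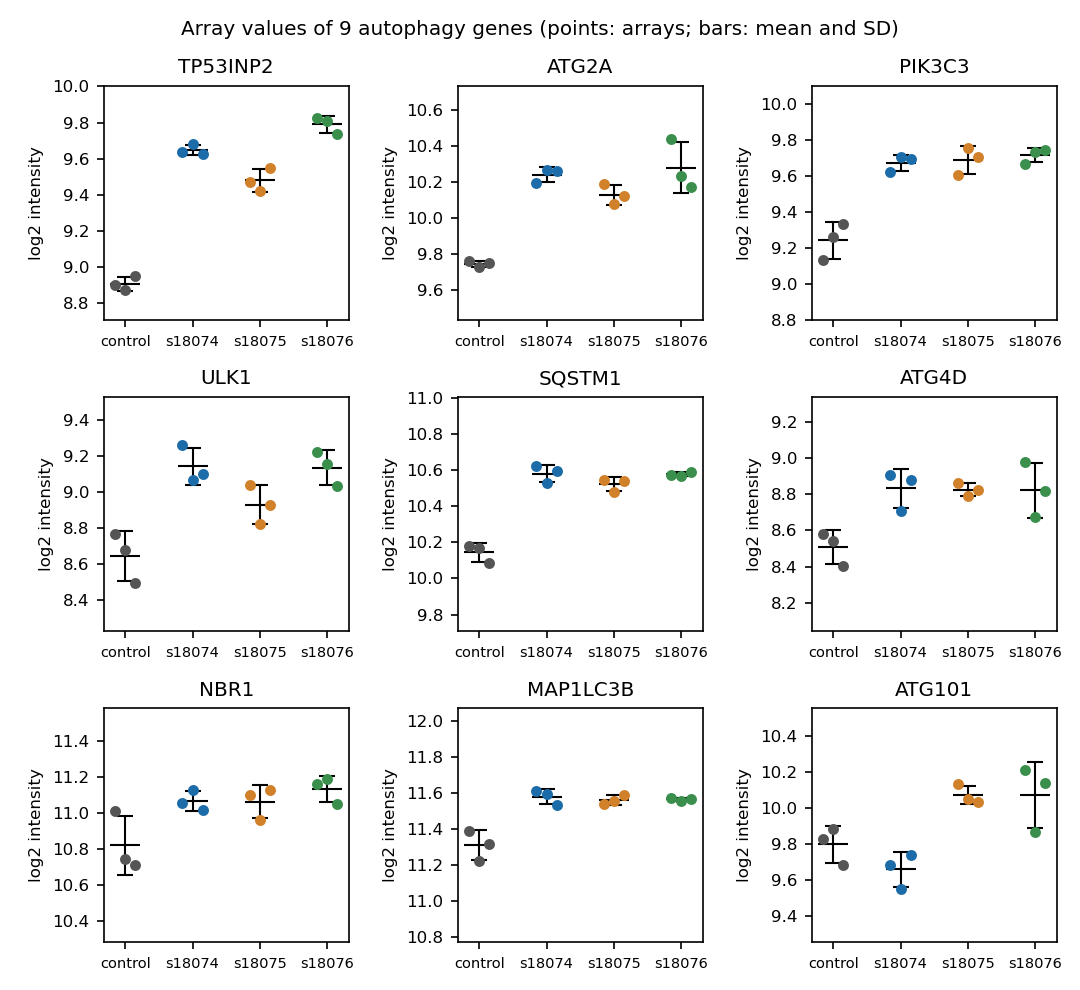
Log2 intensity of 9 autophagy genes on each array (points) in the 4 groups, with the group mean and SD as bars; every panel spans the same width. TP53INP2, ATG2A, PIK3C3, ULK1, SQSTM1, ATG4D and MAP1LC3B have all 9 knockdown arrays above the 3 controls, whereas 1 NBR1 control array and the ATG101 controls overlap with knockdown arrays.

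Sequence upstream of the leading risers is shown as a description, since TFEB and NRF2 have short recognition sequences. These genes were picked by their called changes, so their shared direction follows from the choice. A shared regulator was not tested. RefSeq start windows (GRCh38.p14) were matched for 35 of the 38 genes, 46 windows in all, and the 250 bases before the start were searched on both strands for the letters CACGTG (E-box, bound by TFEB and MYC), GGGCGG (GC box) and TGACNNNGC (antioxidant response element, bound by NRF2). The windows printed are those of the 8 genes with the largest called mean changes, of which ATG4D was not matched. They show the most upstream start of TP53INP2 (chr20:34704094-34704343, plus strand), ATG2A (chr11:64917210-64917459, minus strand), PIK3C3 (chr18:41954984-41955233, plus strand), ULK1 (chr12:131894372-131894621, plus strand), SQSTM1 (chr5:179806143-179806392, plus strand), NBR1 (chr17:43170159-43170408, plus strand) and MAP1LC3B (chr16:87392086-87392335, plus strand). Each is written 5′ to 3′ towards the start, with every match in capitals.
TP53INP2: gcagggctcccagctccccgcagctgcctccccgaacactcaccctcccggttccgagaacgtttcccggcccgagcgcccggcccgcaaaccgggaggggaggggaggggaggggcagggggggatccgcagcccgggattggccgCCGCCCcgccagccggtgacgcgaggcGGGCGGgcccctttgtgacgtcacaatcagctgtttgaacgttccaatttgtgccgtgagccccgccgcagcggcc
ATG2A: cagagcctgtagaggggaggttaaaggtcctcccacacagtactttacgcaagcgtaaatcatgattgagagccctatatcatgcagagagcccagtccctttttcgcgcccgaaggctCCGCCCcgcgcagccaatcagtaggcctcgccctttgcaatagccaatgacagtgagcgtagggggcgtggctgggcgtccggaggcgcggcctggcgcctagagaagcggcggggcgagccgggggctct
PIK3C3: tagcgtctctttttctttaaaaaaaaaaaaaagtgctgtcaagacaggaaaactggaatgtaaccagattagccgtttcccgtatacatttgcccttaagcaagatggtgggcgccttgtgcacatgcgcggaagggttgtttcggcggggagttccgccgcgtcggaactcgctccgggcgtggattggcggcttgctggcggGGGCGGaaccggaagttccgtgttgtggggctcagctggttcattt
ULK1: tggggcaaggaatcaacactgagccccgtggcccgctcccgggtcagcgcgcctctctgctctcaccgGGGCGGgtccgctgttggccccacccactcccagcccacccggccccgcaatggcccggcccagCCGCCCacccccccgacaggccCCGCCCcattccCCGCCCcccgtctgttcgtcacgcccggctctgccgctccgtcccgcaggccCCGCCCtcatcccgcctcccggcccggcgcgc
SQSTM1: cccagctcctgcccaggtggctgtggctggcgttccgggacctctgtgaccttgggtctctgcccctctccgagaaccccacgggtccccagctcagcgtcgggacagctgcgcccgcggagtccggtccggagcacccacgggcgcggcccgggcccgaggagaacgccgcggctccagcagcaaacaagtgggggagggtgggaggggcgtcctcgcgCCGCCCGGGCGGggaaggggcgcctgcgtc
NBR1: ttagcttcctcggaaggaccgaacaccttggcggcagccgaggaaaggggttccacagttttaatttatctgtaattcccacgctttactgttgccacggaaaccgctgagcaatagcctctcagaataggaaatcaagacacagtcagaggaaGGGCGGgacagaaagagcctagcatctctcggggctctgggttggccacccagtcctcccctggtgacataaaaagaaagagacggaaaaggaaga
MAP1LC3B: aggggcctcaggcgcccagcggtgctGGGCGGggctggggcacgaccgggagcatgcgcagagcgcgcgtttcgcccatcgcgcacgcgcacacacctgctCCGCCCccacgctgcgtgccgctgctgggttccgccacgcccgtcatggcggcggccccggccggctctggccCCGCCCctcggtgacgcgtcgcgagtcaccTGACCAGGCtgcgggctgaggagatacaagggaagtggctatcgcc
GC boxes account for the capitals in the first 6 windows, 2 in TP53INP2, 1 each in ATG2A, PIK3C3 and NBR1, 5 in ULK1 and 2 adjoining ones in SQSTM1. MAP1LC3B has 3 GC boxes and 1 antioxidant response element match.
A GC box was found in 31 of the 46 autophagy gene windows (67.4%) and in 42.6% of all 35116 windows. It was in all 15 windows of the 10 risers that were matched. Those 15 windows are part of the 31, and the risers were picked by their values in these data. The other windows with a GC box belong to autophagy genes that did not rise. Several starts of the same gene count as separate windows, 3 for SQSTM1 and 2 each for TP53INP2 and NBR1. The windows of all genes include genes of any brightness, and the share among bright genes was not taken. An E-box was in 2 autophagy gene windows, of ATG14 and ATG3, neither of which passed the test, and in 6.34% of all windows. The antioxidant letters were in 4 of the 46 and in 10.9% of all windows. A match is a description of letters and not of a bound site, and no match covers these 250 bases and nothing beyond them.

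In the ULK complex, which starts autophagosome formation, 1 of 5 genes rose. ULK1, the kinase itself, read 8.76, 8.68 and 8.49 in the controls (log2 intensity), 9.26, 9.07 and 9.10 with s18074, 9.04, 8.82 and 8.93 with s18075, and 9.22, 9.15 and 9.03 with s18076. Every knockdown array lay above every control, by little for s18075 replicate 2. ULK1 rose by 0.42 ± 0.07 in the mean (log2 fold change, adjusted p = 0.00104), with 0.50, 0.29 and 0.49 for the single siRNAs. The call with s18075 (adjusted p = 0.0398) was lost with each array centred on its median and without control replicate 2 or 3, s18074 replicate 3, s18075 replicate 1 or 3, or s18076 replicate 2, and on replicates 2 and 3 alone (adjusted p 0.0517 to 0.137). The paralog ULK2 and the scaffold RB1CC1 (FIP200) gave mean changes of 0.11 ± 0.09 and 0.11 ± 0.09, and ATG13 gave 0.06 ± 0.07, none of which passed. A further ATG13 probe set of similar brightness rose by 0.21 ± 0.06 (limma over all probe sets, adjusted p = 0.0274). The dimmest ATG13 probe set gave 0.02 ± 0.10 and did not pass.

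ATG101, which stabilises ATG13 in that complex, differed between siRNAs in place of a shared change. The controls read 9.83, 9.88 and 9.68 (log2 intensity), s18074 9.69, 9.55 and 9.74, s18075 10.13, 10.05 and 10.03, and s18076 10.21, 9.87 and 10.14. The s18074 arrays were all below those of the other siRNAs, and the controls overlapped with s18074 and s18076. No single siRNA passed against the control, at -0.14 (adjusted p = 0.374), 0.27 (0.0559) and 0.27 ± 0.09 (0.0504). The direct difference from s18074 was 0.41 ± 0.09 for s18075 (adjusted p = 0.0156) and 0.41 ± 0.09 for s18076 (adjusted p = 0.0183). The first of these did not pass without s18074 replicate 2 or s18075 replicate 1, or on replicates 2 and 3 alone (adjusted p 0.0601 to 0.108). The second did not pass without s18074 replicate 1 or 2, or s18076 replicate 1 or 3, or on replicates 2 and 3 alone (adjusted p 0.0502 to 0.170).

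In the class III PI3-kinase complexes, which make phosphatidylinositol 3-phosphate, 2 of 6 genes rose. The catalytic subunit PIK3C3 (VPS34) read 9.13, 9.26 and 9.34 in the controls (log2 intensity), 9.62, 9.70 and 9.69 with s18074, 9.60, 9.76 and 9.71 with s18075, and 9.67, 9.74 and 9.74 with s18076. All knockdown arrays lay above the controls and the 3 siRNA groups overlapped with each other, with changes of 0.43, 0.44 and 0.47 and a mean of 0.45 ± 0.05 (log2 fold change, adjusted p = 8.94e-05). This rests on 1 bright probe set. With its 6 dim probe sets averaged in, the mean change was -0.01 and was not called (adjusted p = 0.925). UVRAG, a subunit that directs the complex to maturation, rose by 0.21 ± 0.05 (adjusted p = 0.0137) but not without control replicate 1 or on replicates 2 and 3 alone (adjusted p 0.0816 to 0.0847).

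The other 4 subunits did not pass in the mean. BECN1, the scaffold, gave 0.17, 0.18 and -0.03 (log2 fold changes with s18074, s18075 and s18076), and its s18076 level lay below its s18075 level, with a difference of -0.21 ± 0.06 (adjusted p = 0.0466). That call was lost without any 1 of 10 arrays, the exceptions being control replicates 1 and 3, and with all probe sets averaged. PIK3R4 passed with s18075 alone at 0.16 ± 0.05 (adjusted p = 0.0433), a call lost with median centring and without any 1 array other than s18076 replicate 1. ATG14 and AMBRA1 gave mean changes of 0.13 ± 0.06 and 0.06 ± 0.04.

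Among the 7 genes for lipid transfer, membrane scramblases and WIPI proteins, ATG2A rose. ATG2A moves lipid from the endoplasmic reticulum into the growing membrane. It read 9.76, 9.73 and 9.75 in the controls (log2 intensity), 10.20, 10.27 and 10.26 with s18074, 10.19, 10.08 and 10.12 with s18075, and 10.44, 10.23 and 10.17 with s18076. The controls were tight and far below the rest, and the s18076 arrays spread most. The change was 0.50, 0.38 and 0.53, and 0.47 ± 0.06 in the mean (log2 fold change, adjusted p = 9.11e-05), 139% of the control level.

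Its paralog ATG2B did not pass on its brightest probe set, at 0.10 ± 0.04 (log2 fold change, adjusted p = 0.0781), nor did its call with s18076 (0.15 ± 0.05, adjusted p = 0.0332) hold without any 1 s18076 or control array. All 9 knockdown arrays, from 9.59 to 9.73, lay above the controls, from 9.54 to 9.56. The next probe set in brightness gave 0.50, 0.78 and 0.60, with a mean of 0.63 ± 0.06, and passed in a fit over all 54613 probe sets that are no control (adjusted p = 4.56e-05). ATG9A gave 0.09 ± 0.07, WIPI2 0.07 ± 0.05 and the dim ATG9B -0.12 ± 0.10, and none passed. WIPI1 gave 0.23 ± 0.11 (adjusted p = 0.159) on its brightest probe set and 0.37 ± 0.07 (adjusted p = 0.00416) on its other one. VMP1 was read from a probe set near the background, at 4.45, because 3 others name a second gene as well and were not used.

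In the conjugation system 2 of 11 genes rose and 1 fell. ATG4D, a protease that trims ATG8 proteins, read 8.58, 8.54 and 8.40 in the controls (log2 intensity), 8.91, 8.71 and 8.88 with s18074, 8.86, 8.79 and 8.83 with s18075, and 8.98, 8.67 and 8.82 with s18076. All knockdown arrays were above the controls, with a mean change of 0.32 ± 0.07 (log2 fold change, adjusted p = 0.00475) and nearly equal changes of 0.33, 0.32 and 0.31. Each of those single calls was lost without control replicate 3. They were also lost without s18074 replicate 1 or 3, s18075 replicate 1 or 3, and s18076 replicate 1, each for its own siRNA, and those with s18074 and s18076 on replicates 2 and 3 alone (adjusted p 0.0558 to 0.0752). The other proteases ATG4A, ATG4B and ATG4C gave mean changes of -0.05, 0.16 and -0.11 and did not pass. A further ATG4B probe set of nearly the same brightness rose by 0.23 ± 0.07 (limma over all probe sets, adjusted p = 0.0486). The dimmest ATG4B probe set gave -0.09 ± 0.07 and did not pass.

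ATG7, the E1-like enzyme that activates both ATG12 and the ATG8 proteins, rose by 0.24 ± 0.05 (log2 fold change, adjusted p = 0.00293). It read 8.45 to 8.50 in the controls and 8.56 to 8.92 on the knockdown arrays, highest with s18075. The excess of s18075 over s18074, 0.22 ± 0.06 (adjusted p = 0.0431), was lost without any 1 of 10 arrays, control replicate 1 and s18075 replicate 2 being the exceptions, with median centring and with all probe sets averaged. The dimmest ATG7 probe set gave 0.45 ± 0.06 (limma over all probe sets, adjusted p = 0.000433). The further ones between it and the brightest gave 0.16 ± 0.06 and 0.11 ± 0.07 and did not pass (adjusted p = 0.111 and 0.345).

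ATG10, the E2-like enzyme that carries ATG12 to ATG5, was the gene that fell. It read 7.91, 8.01 and 7.97 in the controls (log2 intensity), 7.63, 7.88 and 7.81 with s18074, 7.63, 7.88 and 7.77 with s18075, and 7.44, 7.80 and 7.60 with s18076. All 9 knockdown arrays were below the controls, and replicate 1 was the lowest array in each of the 4 groups. The mean log2 fold change was -0.25 ± 0.08 (adjusted p = 0.0406). The call was lost without any 1 of the controls, s18074 replicate 1 or 3, s18075 replicate 1 or 3, or s18076 replicate 3, and on replicates 2 and 3 alone (adjusted p 0.0532 to 0.144).

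The remaining conjugation genes did not pass in the mean. ATG12, the ubiquitin-like modifier, gave 0.15 ± 0.08 (log2 fold change), its acceptor ATG5 0.07 ± 0.05, ATG16L1, which places the conjugate on the membrane, 0.22 ± 0.07 (adjusted p = 0.0514), ATG16L2 -0.13 ± 0.07 and the E2-like enzyme ATG3 -0.04 ± 0.05. ATG5 passed with s18076 alone at 0.19 ± 0.06 (adjusted p = 0.0428), and it was higher with s18076 than with s18075 by 0.21 ± 0.06 (adjusted p = 0.0364). Leaving out 1 of 9 arrays ended the first of these calls and leaving out 1 of 7 ended the second, any s18076 array among them in both. Both calls were also lost under either other scaling and with all probe sets averaged.

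Of the 4 ATG8 proteins, which are attached to the membrane and hold cargo receptors, 2 rose. MAP1LC3B (LC3B) read 11.39, 11.22 and 11.32 in the controls (log2 intensity), 11.61, 11.59 and 11.54 with s18074, 11.54, 11.56 and 11.59 with s18075, and 11.57, 11.56 and 11.57 with s18076. All 9 knockdown arrays lay above the controls, and the 3 siRNA groups overlapped with each other. MAP1LC3B rose by 0.26 ± 0.04 (log2 fold change, adjusted p = 0.00134), with 0.27, 0.25 and 0.25 for the single siRNAs. Its other probe set gave 0.25, -0.11 and 0.21, with a mean of 0.12 ± 0.08 that did not pass.

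GABARAP rose by 0.14 ± 0.04 (log2 fold change, adjusted p = 0.0407), the smallest change among the risers, from 13.05 to 13.11 in the controls to 13.14 to 13.30 on the knockdown arrays. Its call was lost with each array centred on its median, on replicates 2 and 3 alone and without any 1 of 10 arrays, the exceptions being s18074 replicate 3 and s18076 replicate 2 (adjusted p 0.0543 to 0.188). GABARAPL1 gave 0.12 ± 0.08 and GABARAPL2 gave 0.04 ± 0.04, and neither passed.

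All 3 cargo receptors among the listed genes rose in the mean, where 10.2% of all genes and 15.2% of bright ones rose. Of 16 further selective receptors, described below, 2 rose. SQSTM1 (p62), which gathers ubiquitinated cargo, read 10.18, 10.17 and 10.08 in the controls (log2 intensity), 10.62, 10.53 and 10.59 with s18074, 10.55, 10.48 and 10.54 with s18075, and 10.57, 10.57 and 10.59 with s18076. The controls lay well below every knockdown array. SQSTM1 rose by 0.44, 0.38 and 0.43, and by 0.42 ± 0.04 in the mean (log2 fold change, adjusted p = 3.27e-05). Its 4 dimmer probe sets gave 0.11, 0.23, -0.20 and -0.38, the last of them called downwards (adjusted p = 0.00370), and the mean of all 5 was not called (0.03, adjusted p = 0.705).

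NBR1, a receptor that works beside SQSTM1, read 11.01, 10.74 and 10.71 in the controls (log2 intensity), 11.06, 11.13 and 11.02 with s18074, 11.10, 10.96 and 11.13 with s18075, and 11.16, 11.19 and 11.05 with s18076. Control replicate 1 stood above the other controls and overlapped with s18075 replicate 2. NBR1 rose by 0.27 ± 0.07 in the mean (log2 fold change, adjusted p = 0.0130), and passed with s18076 (adjusted p = 0.0175) but not with s18074 or s18075. Its mean call was lost without control replicate 2 or 3 and with all probe sets averaged (adjusted p 0.0784 to 0.122). Its s18076 call was lost in the same settings and without s18076 replicate 1 or 2 (adjusted p 0.0519 to 0.414). OPTN, the receptor of mitochondria and bacteria, rose by 0.24 ± 0.04 (adjusted p = 0.00197) and its other probe set by 0.34 ± 0.06 (adjusted p = 0.00191).

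Of the regulators, TFEB gave 0.20, 0.08 and 0.16, with a mean of 0.15 ± 0.06 (log2 fold change, adjusted p = 0.0963). Its other probe set, of nearly the same brightness, rose by 0.22 ± 0.05 (adjusted p = 0.0115).

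The probe sets of a gene often gave different answers. A further probe set existed for 7 of the 13 genes called in the mean. In 3 cases, ATG7, NBR1 and OPTN, one was called in the same direction. For NBR1 it was a probe set near the background, at 3.55 (mean log2 intensity). The brighter further NBR1 probe set, at 8.05, gave 0.32 ± 0.19 and was not called (limma over all probe sets, adjusted p = 0.359). The matching share over all called genes was not taken. Of the 25 genes not called, 6 had a further probe set that was called, ATG12, ATG13, ATG2B, ATG4B, TFEB and WIPI1, each of them upwards. The share with a called further probe set was 33.3% of the 18 uncalled autophagy genes that have one, and 14.1% of all such uncalled genes. Of all 55 further probe sets 10 rose and 1 fell, where 6.73% of the further probe sets of all genes rose and 5.77% fell.

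**Figure D4:**
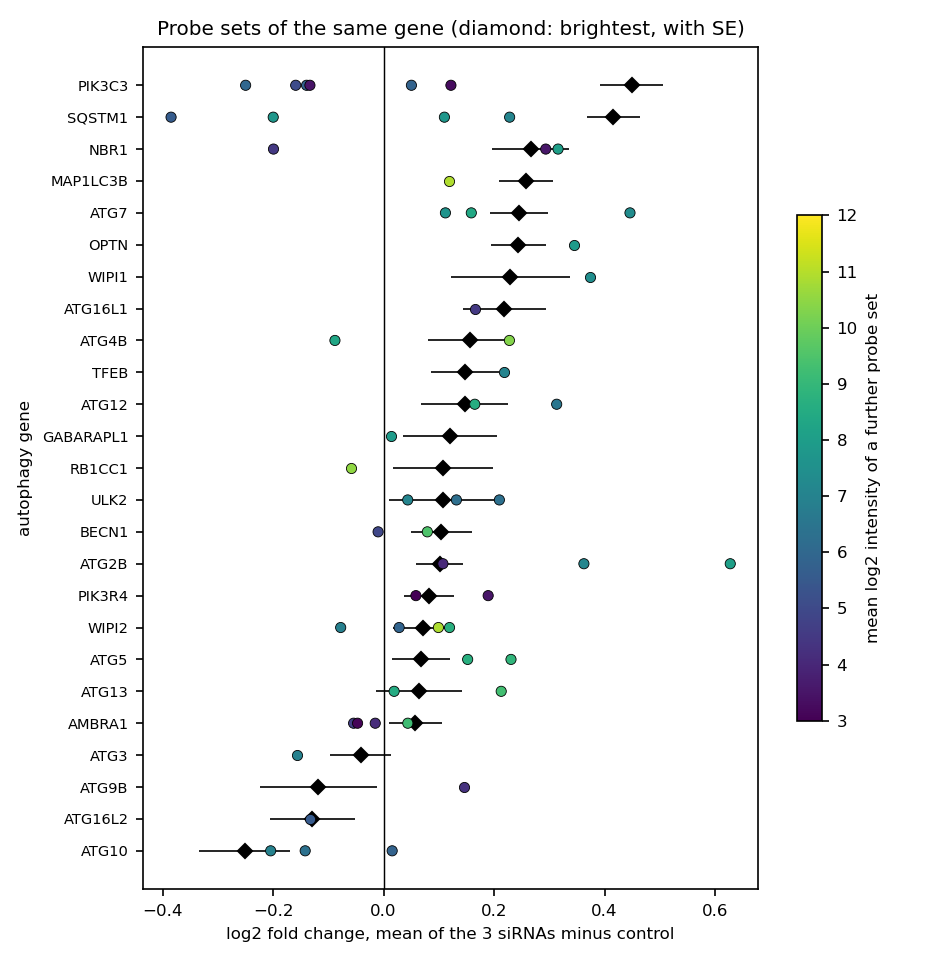
Mean log2 fold change of each probe set of the 25 autophagy genes that have several, with the brightest as a diamond (bars: standard error) and further ones as circles coloured by mean log2 intensity. The dark, dim circles of PIK3C3 and SQSTM1 lie to the left of their diamonds, and a further ATG2B probe set lies at 0.63 against 0.10 for its diamond.

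The F test for differences between siRNAs called 2 of the 38 genes, TP53INP2 and ATG101, where 12.6% of all genes were called. With replicate 1 against the others as a block in the fit, it called 10, where 19.1% of all genes were called. ATG101 was not called without s18074 replicate 2 or on replicates 2 and 3 alone (adjusted p 0.0576 to 0.107). The direct contrasts called ATG101 and ATG7 between s18075 and s18074 (6.37% of all genes called, 2.82% upwards and 3.55% downwards), ATG101 between s18076 and s18074 (5.11%, with 2.84% and 2.27%), and TP53INP2, ATG5 and BECN1 between s18076 and s18075 (11%, with 6.57% and 4.44%). That the F test did not call the other 36 genes does not show that the siRNAs acted alike on them.

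Other genes of the pathway were read from lists set down by function. Of 28 genes for autophagosome formation and fusion with the lysosome 11 rose and 1, VPS16, fell (median 0.11, log2 fold change in the mean of the 3 siRNAs). PLEKHM1, an adaptor that brings lysosomes to autophagosomes, rose by 0.55 ± 0.09, FYCO1, which links them to kinesin, by 0.44 ± 0.05, WDR45, a WIPI family protein, by 0.35 ± 0.05, and ZFYVE1 by 0.34 ± 0.06. FYCO1 differed between siRNAs (F test, adjusted p = 0.0368), at 0.29, 0.50 and 0.52 with s18074, s18075 and s18076. Of 16 further selective receptors 2 rose and 0 fell (median 0.11), the mitophagy receptor BNIP3L by 0.34 ± 0.08 and the ER-phagy receptor SEC62 by 0.21 ± 0.04. BNIP3L was lost without control replicate 2 (adjusted p = 0.0540), and SEC62 with all probe sets averaged (adjusted p = 0.837).

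Of 35 measured genes of the mTORC1 and AMPK pathways, which hold autophagy back or start it, 8 rose and 4 fell (median 0.07). FNIP2, a partner of folliculin, rose by 0.54 ± 0.07 (log2 fold change), the Rag GTPase RRAGD by 0.35 ± 0.05 and TBC1D7, a subunit of the TSC complex, by 0.29 ± 0.06 in the mean. RRAGD gave 0.09, 0.39 and 0.58 with s18074, s18075 and s18076, and TBC1D7 gave 0.34, 0.47 and 0.07, and both differed between siRNAs by the F test (adjusted p = 0.000424 and 0.00767). NPRL3, a subunit of the GATOR1 complex that restrains mTORC1, fell by 0.33 ± 0.07, though not with all probe sets averaged (adjusted p = 0.345). The siRNAs differed by the F test in 13 of these 35 genes, where 12.6% of all genes were called. None of the 35 is among the dimmest 40% of genes. In a fit without those dim genes, the F test called 27.8% of the genes. Without control replicate 2 the list held 7 genes called in the mean, and the share of all genes called in that fit is not given.

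Of 32 measured lysosome genes 12 rose and 3 fell (median 0.13). LAMP2, a lysosomal membrane protein that autophagosome fusion needs, rose by 0.47 ± 0.05 (log2 fold change), the sialidase NEU1 by 0.40 ± 0.11 and the proton pump subunit ATP6AP1 by 0.39 ± 0.07, while the galactosidase GLA fell by 0.42 ± 0.04. LAMP1 and TPP1 were the other genes that fell. GLA and LAMP1 differed between siRNAs by the F test (adjusted p = 0.00159 and 0.00127), with LAMP1 at 0.00 with s18074, -0.31 with s18075 and -0.46 with s18076. NEU1 was lost without control replicate 2 or 3 (adjusted p up to 0.118). With all probe sets averaged 8 lysosome genes were called in the mean, and the share of all genes called in that fit is not given. Of 7 measured transcription factors and regulators 1 rose, FOXO3, by 0.24 ± 0.05 (median of the list -0.05). The called shares of these lists are to be read against 20.3% of all genes and 30.6% of bright ones.

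**Figure D5:**
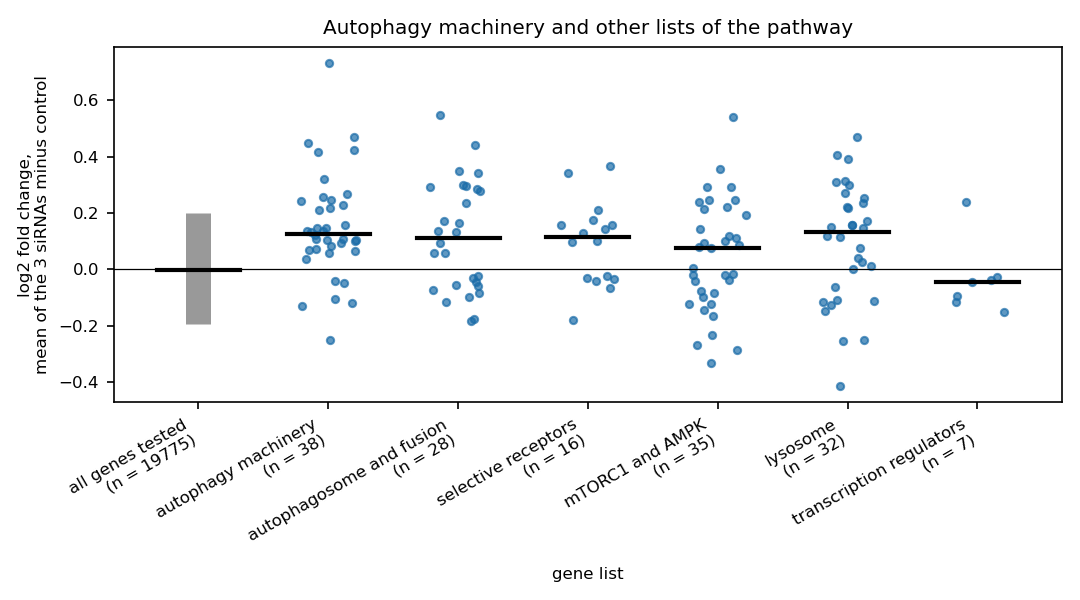
Log2 fold change in the mean of the 3 siRNAs for each gene (points) of the autophagy machinery and of 5 other lists of the pathway, with the list median as a black line; the grey bar spans the middle 80% of all genes tested. The medians are 0.13 for the autophagy machinery, 0.11, 0.11, 0.07 and 0.13 for the next 4 lists and -0.05 for the transcription regulators, beside 0.00 for all genes.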

How the data were processed

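The deposited values are linear intensities per probe set, from 4.36 to 33219. Per the submitters' processing notes, the authors used RMA (affy 1.24.2), which corrects background, equalises arrays and summarises probes, so a shift common to all genes is removed. Here log2 was taken with no offset and no dim probe set was left out. Of 54675 probe sets 41091 name 1 gene in the platform annotation, 1801 several and 11721 none. The probe set with the highest mean represented each of 19775 genes.

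Group means of the 4 groups were modelled over all genes (limma 3.58.1, R 4.3.3, functions lmFit and eBayes, 8 residual degrees of freedom), with Benjamini-Hochberg adjustment, and tested on simulated data. Errors after ± are standard errors. The mean of the 3 siRNAs treats them as fixed. A separate fit held every probe set that is no control. Named are the 8 largest called mean changes, the 3 largest with each siRNA and up to 3 by the F test, with the other autophagy genes by role and up to 4 genes of each other list. The members and lists were chosen with earlier results of these data known. VPS16, LAMP1, TPP1 and the further probe sets were named after their values were seen.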

Additional observations from a re-analysis of the deposited data

Results flagged for a closer look

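Several results were marked because the effect of MED26 depletion differed between the 3 siRNAs by the limma F test over all features, with Benjamini-Hochberg adjustment. TP53INP2 differed between siRNAs with adjusted p = 0.00595, as a rise in 9 of 9 knockdown arrays that was largest with s18076 (0.88) and smallest with s18075 (0.57, log2 fold changes), and it did not pass on replicates 2 and 3 alone (0.0864). ATG101 differed with adjusted p = 0.00997, at -0.14 with s18074 against 0.27 with each of the others, and it did not pass without s18074 replicate 2 or on replicates 2 and 3 alone (0.0576 to 0.107).

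The dimmest of the 3 ATG5 probe sets went in opposite directions. It read 8.41, 8.62 and 8.67 in the controls (log2 intensity), 8.98, 8.99 and 9.02 with s18074, 8.82, 8.91 and 8.93 with s18075, and 8.14, 8.27 and 8.38 with s18076. It rose by 0.43 ± 0.08 with s18074 (log2 fold change, adjusted p = 0.00661) and by 0.32 ± 0.08 with s18075 (0.0253), and it fell by 0.30 ± 0.08 with s18076 (0.0344), with an F test adjusted p = 0.000266. The brightest ATG5 probe set gave 0.19 with s18076.

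A pair of dim PIK3C3 probe sets also differed between siRNAs. The first (adjusted p = 0.00455) gave 0.07, -0.59 and -0.23 with s18074, s18075 and s18076, and the second (adjusted p = 0.0462) gave 0.14, -0.42 and -0.13, where the brightest one rose with each siRNA.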

How the results depend on the processing

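The alternatives were 2 other scalings, an offset of 32 before log2, a filter on the dimmest 40% of genes, all probe sets averaged, other variance models, array weights, replicate blocks, smaller sets of arrays, and adjusted p under 0.01. The count for the mean of the 3 siRNAs (13) stayed within 1.5 times under all of them. For s18074 (7) it was 12 without dim genes, 11 with all probe sets averaged and 11 with array weights. For s18075 (10) it was 6 at adjusted p under 0.01, and for s18076 (15) it was 8 there and 9 in a fit with the controls alone. The F test (2, where 12.6% of all genes were called) called 4 after quantile normalization (12.8% of all genes) and 6 with the offset (16.1%). It called 5 without dim genes (27.8%), with trend and robust variance (15.7%) or with array weights (17.6%). On replicates 2 and 3 it called 0 (8.49%), with 9 at an unadjusted p under 0.05 in limma. Between s18075 and s18074 (2) it was 1 with median centring or all probe sets averaged, 4 with the offset or without dim genes, and 0 on replicates 2 and 3 or at adjusted p under 0.01. Between s18076 and s18074 (1) it was 2 with the offset, without dim genes or with trend and robust variance, and 0 in the last 2 settings named. Between s18076 and s18075 (3) it was 1 in both. On replicates 2 and 3 these contrasts held 7, 4 and 9 genes at an unadjusted p under 0.05, lower and higher together: 3 higher and 4 lower, 3 and 1, and 5 and 4. Leaving out 1 array gave 10 to 13 for the mean, and 6 to 10, 6 to 12 and 9 to 15 for the single siRNAs in order. It gave 1 to 3 for the F test (8.7% to 13.3% of all genes called), and 0 to 2, 0 to 1 and 1 to 3 for the direct contrasts. For counts other than the F test, the share of all genes called under each setting is not given in this section. A changed count there cannot be told apart from a change in the calls over all genes.

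Same-numbered arrays correlated across groups (deviations from group means) at 0.326 to 0.439 for replicate 1, at -0.0240 to 0.248 for replicate 2 and at 0.0344 to 0.169 for replicate 3. Arrays of different numbers gave -0.391 to 0.315, so replicate 1 alone lay above them. The main fit took no pairs and no block for replicate 1. With a replicate block of all 3 numbers the count was 16 for s18075, 9 for the F test (17.1% of all genes called), 2 for s18076 over s18074 and 8 for s18076 over s18075. With replicate 1 against the others as the block it was 13 for s18074, 17 for s18075, 10 for the F test (19.1% of all genes called), and 4, 3 and 9 for the direct contrasts in order.

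With all probe sets averaged, 4 results reversed and were not called. These were PIK3C3, s18075 against control (-0.094), PIK3C3, s18076 against control (-0.0302), PIK3C3, mean of the 3 siRNAs against control (-0.0087), and ATG5, s18076 against s18075 (-0.10). For other changes the cause was not tested.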

Other observations

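Replicate 1 stood apart in several autophagy genes. RB1CC1 read 10.88, 10.96, 10.84 and 10.95 on the replicate 1 arrays of the controls, s18074, s18075 and s18076 (log2 intensity), the highest array of each group, and 10.48 to 10.92 on the others. ATG9A was highest on the replicate 1 array of each group too, at 9.95, 10.09, 9.91 and 10.09. The labels do not say what the replicate numbers share.

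The brightest of the probe sets that the annotation gives to VMP1 together with a second gene read 11.38 on average (log2 intensity), and its mean change was 0.25 ± 0.11, which did not pass (limma over all probe sets, adjusted p = 0.200).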
